A study of Saccharomyces cerevisiae and Saccharomyces mikatae and Saccharomyces paradoxus with 13 samples.

Results

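The sulfur and methionine genes of yeast were followed on S. cerevisiae cDNA arrays through the mating response of 3 species. The set holds 35 ORFs chosen by function (the MET, SUL, MUP, SAM, STR and CYS genes and their relatives), out of 6132 ORFs with a row in the deposited table. MET17 (YLR303W), which BY4741 lacks by deletion, is described apart, so counts below are over the other 34 genes. Haploid a cells in YPD at 30 °C received 6 µM alpha factor (the mating peptide that alpha cells secrete) for 60 min, and each such sample shared its array with cells of the same species from before the addition. This was done in S. cerevisiae BY4741 (3 arrays), in an a haploid derived from S. paradoxus CBS432 (3 arrays) and in one derived from S. mikatae IFO 1815 (4 arrays). On 3 further arrays, S. cerevisiae BY4741 (a) and BY4742 (alpha) cells mated for 90 min on a filter were set against both strains incubated apart and combined for RNA extraction. The labels number the arrays of a group as repeats, and each species is represented by 1 strain; where repeats are not separate cultures, p-values measure only the spread between these samples. In the mated population, fewer cells of a type and less RNA per cell cannot be told apart.

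Yeast takes up sulfate, activates it to APS and PAPS, reduces it to sulfide and joins the sulfide to a carbon chain made from homoserine, which gives homocysteine. Homocysteine is methylated to methionine, methionine is turned into S-adenosylmethionine (the methyl donor of the cell), and transsulfuration links homocysteine and cysteine. The transcription factor Met4, brought to DNA by Cbf1 or by Met31 and Met32, activates most of these genes, and the ubiquitin ligase subunit Met30 holds Met4 in check when sulfur compounds are plentiful, as they are in YPD. MET17 encodes the enzyme that joins sulfide to O-acetylhomoserine, so BY4741 depends on organic sulfur from its medium, while BY4742 carries the gene. That genotype cannot be told apart from species in a comparison of BY4741 with the wild-derived S. paradoxus and S. mikatae strains.

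All values are log2 ratios of treated (or mated) over reference cells, centred on each array's median. The labels disagree on the dye of the treated sample: the direction is taken as likely because pheromone genes are positive, and with the sign turned every rise would read as a fall. The mating genes FIG1, KAR4 and FUS1 were above 0 in all 4 groups (group means of FIG1 between 4.62 and 5.02, of KAR4 between 3.25 and 4.37 and of FUS1 between 1.50 and 2.07). AGA1 was at 3.67 in S. cerevisiae, 3.82 in S. paradoxus and 0.17 in S. mikatae. Calls rest on limma with Benjamini-Hochberg adjustment over every gene that had 2 or more values per group compared, and need an adjusted p under 0.05. The alpha factor reference was taken before treatment, so time in culture and pheromone cannot be told apart. Arrays gave 3616 to 5964 values each. Of the 34 sulfur genes, 32 were tested in S. cerevisiae, 27 in S. paradoxus, 25 in S. mikatae and 18 in mating, and 15 gave no value on any mating array. The signal behind each ratio is unknown, and so is the mismatch between these S. cerevisiae probes and the RNA of the other species.

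**Figure D1:**
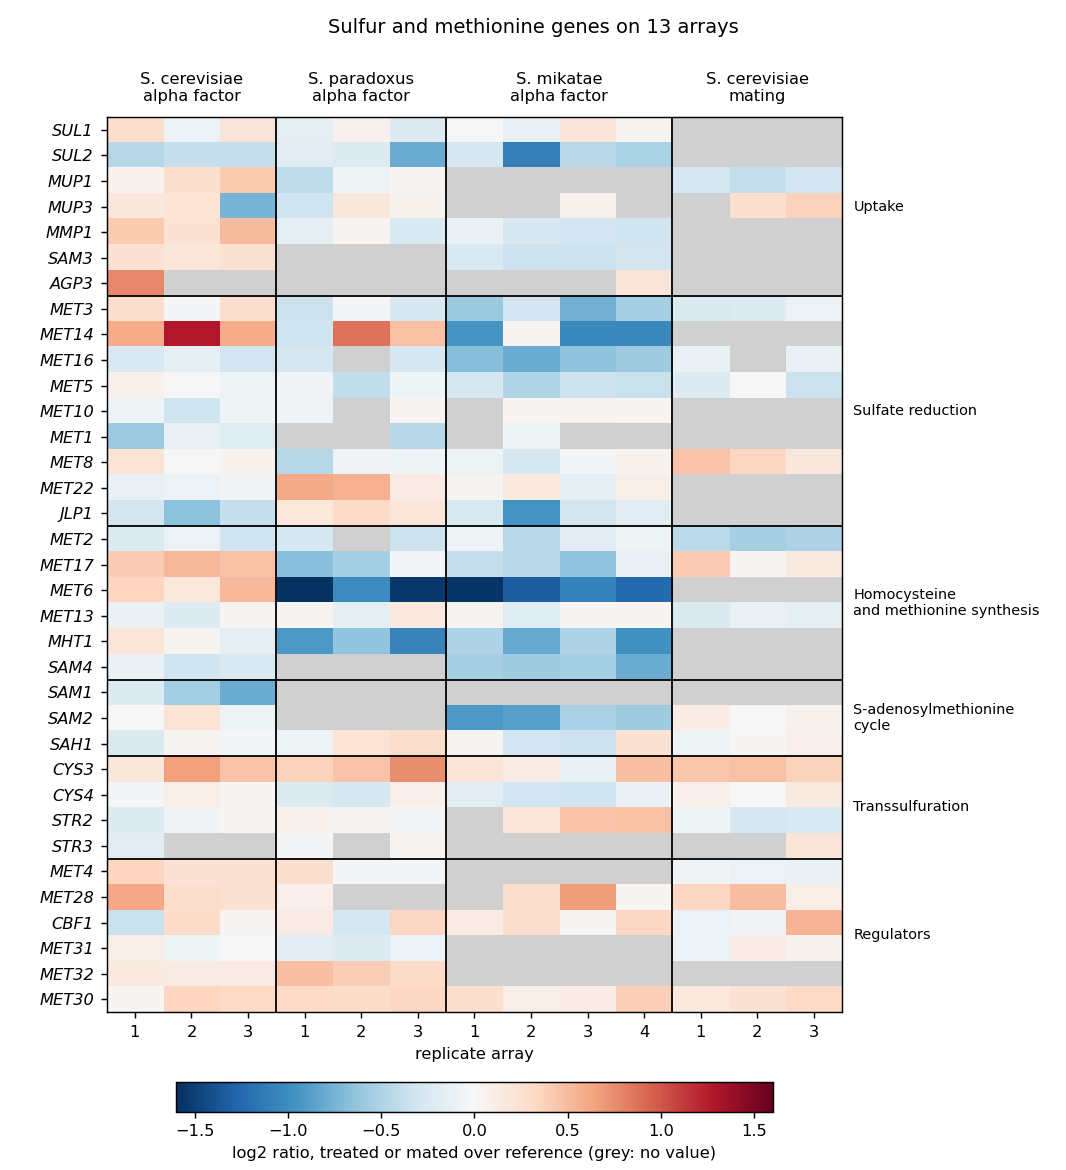
Log2 ratio of each of 35 sulfur and methionine genes (rows, grouped by role) on 13 arrays (columns, by group and replicate). Blue is lower and red higher in treated or mated cells, and grey marks no value. MET6 is blue on all S. paradoxus and S. mikatae arrays and pale red on the S. cerevisiae alpha factor arrays.

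In S. mikatae, several genes from sulfate activation to S-adenosylmethionine fell after alpha factor, while MET10, MET22, MET8 and MET13 were not called. Of 25 genes tested 14 fell and 3 rose, while of all S. mikatae genes tested 48.0% were called (24.7% fell and 23.3% rose). The median of the sulfur genes was −0.23, against 0.00 for all genes tested. In S. cerevisiae the counts were 8 higher and 3 lower of 32, against 16.3% and 17.3% of all genes, with a median of 0.02. In S. paradoxus they were 4 higher and 5 lower of 27, against 23.9% and 24.6%, with a median of −0.03. In mating they were 3 higher and 3 lower of 18, against 19.4% and 20.2%, with a median of 0.02. Without S. cerevisiae replicates 1, 2 or 3 the 11 S. cerevisiae calls became 7, 2 and 2, and without mating replicates 2 or 3 the 6 mating calls became 2 and 3. Calls over all genes fell too, in S. cerevisiae from 1946 of 5789 to 1375 of 5593, 1402 of 5681 and 1124 of 5651. In mating they fell from 1469 of 3712 to 968 of 3600 and 1067 of 3545. The S. mikatae total of 17 became 14 or 15 when any one of its arrays was left out. Over all genes the 2095 calls there became between 1762 and 1861. Among genes measured on all 13 arrays, 4 of 9 sulfur genes and 1245 of all 2194 genes were called in S. mikatae.

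**Figure D2:**
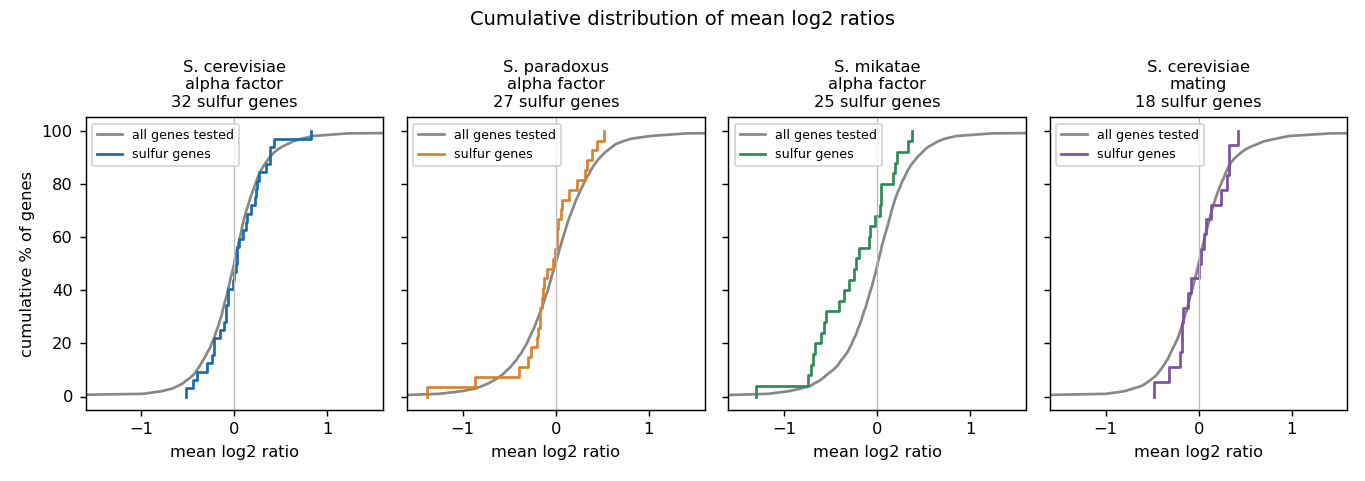
Cumulative percent of genes (vertical axis) by mean log2 ratio (horizontal axis) in each group, for the tested sulfur genes (coloured steps) and for all genes tested (grey). The S. mikatae steps lie to the left of the grey line over most of their range, with a median of −0.23. In the other 3 groups the medians lie between −0.03 and 0.02.

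The responses were then compared directly. Between S. mikatae and S. cerevisiae 11 of 25 sulfur genes differed, 10 of them lower in S. mikatae and 1 higher, where 11.9% of all genes tested differed (5.49% lower and 6.38% higher). The arrays of these 2 species did not overlap for 13 of the 25 sulfur genes and for 27.1% of all genes. The lower genes were MET6, MET14, SAM2, MET3, MHT1, MMP1, SAM3, MET16, SAM4 and MET5, and the higher one was STR2. Between S. paradoxus and S. cerevisiae 5 of 26 differed (MET6, MHT1 and MMP1 lower, JLP1 and MET22 higher), against 16.3% of all genes (7.25% lower and 9.07% higher). That count became 3, 2 and 3 without S. cerevisiae replicate 1, S. cerevisiae replicate 3 or S. paradoxus replicate 1. Over all genes 770 calls became 448, 446 and 475. Both comparisons share the 3 S. cerevisiae arrays. Between S. mikatae and S. paradoxus 4 of 21 differed (MET14, MET16 and JLP1 lower in S. mikatae, STR2 higher), against 13.7% of all genes (7.68% lower and 6.04% higher). The count of 4 fell to 1 without any single S. paradoxus array and to 2 without S. mikatae replicate 1 or 3. Without S. paradoxus replicate 1 or 3 only 18 sulfur genes were tested, and MET16 was not among them. Over all genes 561 calls became 379, 428 and 465 without S. paradoxus replicates 1, 2 and 3. They became 474 and 452 without S. mikatae replicates 1 and 3. A test for any difference among the 3 species called 9 of 21 sulfur genes and 23.9% of all genes.

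**Figure D3:**
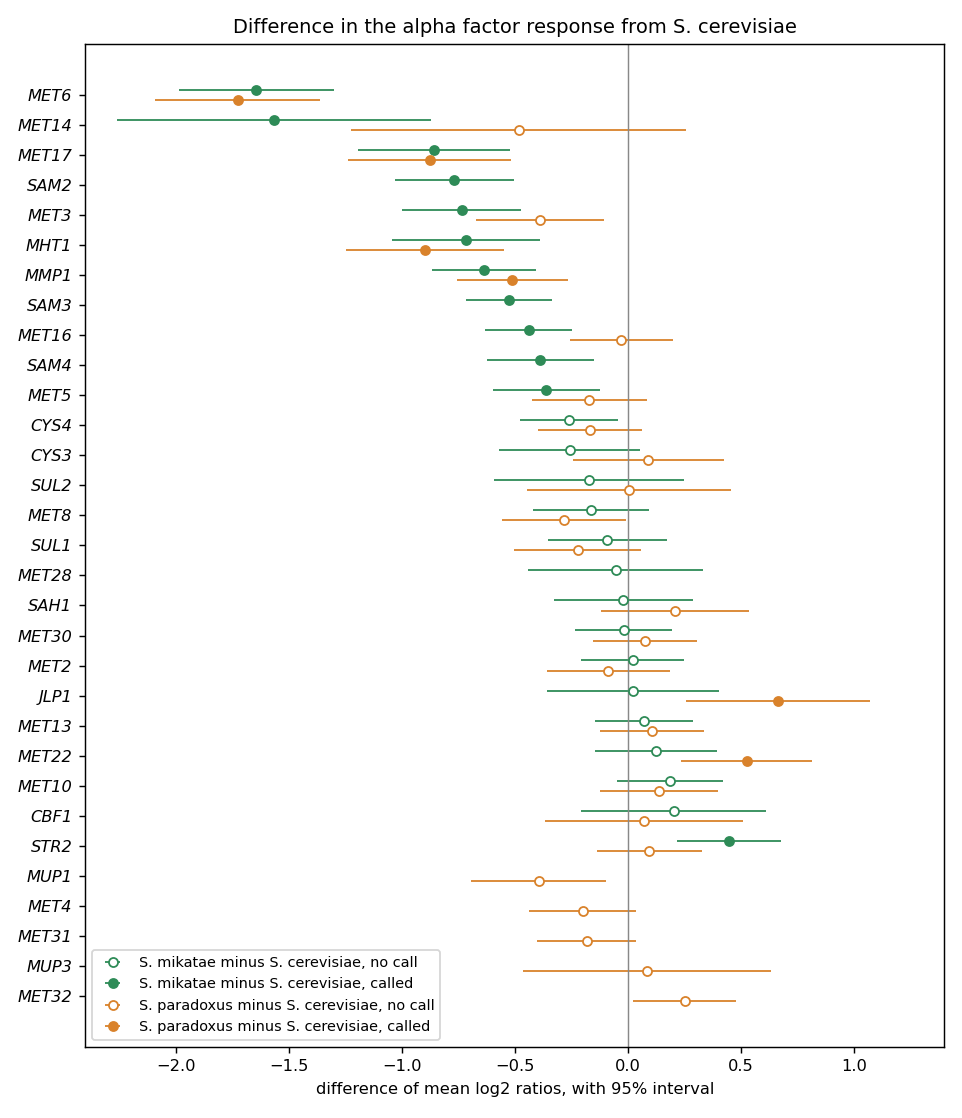
Difference in mean log2 ratio from S. cerevisiae (horizontal axis) with its 95% interval from limma, for S. mikatae (green) and S. paradoxus (orange). Filled points were called, open points were not, and MET17 is included. MET6 lies near −1.7 for both species, and MET14, MET3, MET16 and MET5 have filled points for S. mikatae and open ones for S. paradoxus.

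The gene that differed most was MET6 (YER091C), which encodes the cobalamin-independent methionine synthase that makes methionine from homocysteine. Its log2 ratios were 0.34, 0.17 and 0.51 on the S. cerevisiae alpha factor arrays, −1.58, −1.02 and −1.55 on those of S. paradoxus, and −1.56, −1.31, −1.08 and −1.25 on those of S. mikatae. Every S. cerevisiae array was above 0, every array of the other species was below −1, and no mating array gave a value. MET6 fell by 1.38 ± 0.311 (SD, n = 3; 2.61-fold; adjusted p = 3.55e-06) in S. paradoxus and by 1.30 ± 0.202 (n = 4; 2.46-fold; adjusted p = 1.25e-06) in S. mikatae. It ranked 31st from the lowest of 4748 genes in S. paradoxus and 33rd of 4367 in S. mikatae. In S. cerevisiae it rose by 0.34 ± 0.17 (adjusted p = 0.0438), a call that was lost when any one of the 3 arrays was left out and with scaled arrays. The response was lower than in S. cerevisiae by −1.72 in S. paradoxus (95% interval −2.09 to −1.36; adjusted p = 0.000106) and by −1.64 in S. mikatae (−1.99 to −1.30; adjusted p = 5.2e-05). The S. mikatae and S. paradoxus responses differed by 0.08 (interval −0.26 to 0.42; adjusted p = 0.786).

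Homocysteine can also be methylated by MHT1 (YLL062C), which uses S-methylmethionine, and by SAM4 (YPL273W), which uses S-adenosylmethionine. MHT1 stood at 0.19, 0.04 and −0.16 in S. cerevisiae, at −0.92, −0.63 and −1.07 in S. paradoxus and at −0.49, −0.81, −0.50 and −0.97 in S. mikatae. The S. cerevisiae arrays straddled 0 and did not overlap those of either other species. MHT1 fell by 0.87 ± 0.222 in S. paradoxus (adjusted p = 8.17e-05) and by 0.69 ± 0.238 in S. mikatae (adjusted p = 0.00013), and both differences from S. cerevisiae passed (−0.90, adjusted p = 0.00337, and −0.72, adjusted p = 0.00956). SAM4 was at −0.11, −0.32 and −0.24 in S. cerevisiae and at −0.53, −0.57, −0.54 and −0.79 in S. mikatae, with no value in S. paradoxus or mating. It fell by 0.61 ± 0.124 in S. mikatae (adjusted p = 6.36e-05). Its difference from S. cerevisiae (−0.39, adjusted p = 0.0406) lost its call when any one of the 7 arrays was left out, and with arrays scaled or quantile normalized.

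The other genes of the homocysteine branch moved less. MET2, which makes O-acetylhomoserine, fell by 0.48 ± 0.0466 in mating (n = 3; adjusted p = 0.000479), by 0.30 ± 0.0673 in S. paradoxus (n = 2; adjusted p = 0.0221) and by 0.19 ± 0.174 in S. mikatae (n = 4; adjusted p = 0.0347). The S. mikatae call was lost without replicate 2 or 3, with array weights and with only the arrays compared, and the S. paradoxus call with only the arrays compared. In S. cerevisiae after alpha factor MET2 was at −0.21 ± 0.113 (adjusted p = 0.0539). MET13, the methylenetetrahydrofolate reductase that supplies the methyl group to Met6, lay between −0.17 and 0.01 in the group means and was called in no group.

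MET17 was measured on all 13 arrays, although BY4741 carries no copy. It read 0.40, 0.53 and 0.47 on the BY4741 alpha factor arrays, a mean of 0.47 ± 0.0609 (adjusted p = 0.00885). BY4741 RNA should hold no MET17 transcript. In the RefSeq annotation MET17 overlaps YLR302C, an ORF that also has a row here. The origin of the signal at the MET17 probe was not tested. In mating, where BY4742 cells carry the gene in both channels, it read 0.41, 0.02 and 0.14 (mean 0.19 ± 0.2, adjusted p = 0.22). S. paradoxus gave −0.67, −0.54 and −0.02 and S. mikatae −0.38, −0.44, −0.63 and −0.12. Both sets lay below 0, and MET17 fell by 0.41 ± 0.343 in S. paradoxus (adjusted p = 0.011) and by 0.39 ± 0.209 in S. mikatae (adjusted p = 0.00609). The S. paradoxus call was lost without replicate 1 or 2 and with only the arrays compared. The 2 species differed by 0.02 (interval −0.32 to 0.35; adjusted p = 0.952), and differences from BY4741 at this probe do not compare the same gene.

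In S. mikatae, where 24.7% of all genes fell, 4 of 5 genes of the homocysteine and methionine branch were called lower (MET6, MHT1, SAM4 and MET2, the last a call lost under several alternatives). In the sulfate reduction group, which here also holds JLP1 of sulfonate use, 5 of 8 tested genes fell there (MET14, MET16, MET3, JLP1 and MET5). The median of the group was −0.39. MET3 (YJR010W) encodes ATP sulfurylase, the first step of sulfate activation. Its ratios were 0.28, −0.02 and 0.28 in S. cerevisiae, −0.34, −0.02 and −0.26 in S. paradoxus, −0.60, −0.31, −0.77 and −0.53 in S. mikatae and −0.23, −0.21 and −0.09 in mating. MET3 fell by 0.55 ± 0.192 in S. mikatae (adjusted p = 8.05e-05), and all 4 of those arrays lay below all 3 of S. cerevisiae (difference −0.74, interval −0.999 to −0.47, adjusted p = 0.00152). S. paradoxus lay between them, with a difference of −0.39 from S. cerevisiae (adjusted p = 0.0596) and of −0.35 for S. mikatae minus S. paradoxus (adjusted p = 0.077).

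MET14 (YKL001C), the APS kinase of the next step, had the widest range over the arrays among the sulfur genes. It read 0.59, 1.28 and 0.59 in S. cerevisiae, −0.32, 0.87 and 0.47 in S. paradoxus and −0.94, 0.04, −1.03 and −1.03 in S. mikatae. S. mikatae replicate 2 stood about 1 log2 unit above the other 3, and S. paradoxus replicate 1 was the only negative array of that species. MET14 rose by 0.82 ± 0.399 in S. cerevisiae (adjusted p = 0.0212), a call lost without replicate 2, where the value was 0.59. It fell by 0.74 ± 0.521 in S. mikatae (adjusted p = 0.0113), lost without replicate 3 or 4, and was at −1.003 without replicate 2. The difference between these 2 species was −1.56 (interval −2.26 to −0.87; adjusted p = 0.00793) and was called in all 15 alternatives run for it. The difference of S. mikatae from S. paradoxus was −1.08 (adjusted p = 0.0424), with overlapping arrays, and was called in only 6 of 15 alternatives.

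MET16 (YPR167C) encodes the PAPS reductase. Its values were −0.24, −0.15 and −0.31 in S. cerevisiae, −0.27 and −0.26 in S. paradoxus (n = 2), −0.68, −0.79, −0.65 and −0.57 in S. mikatae and −0.12 and −0.10 in mating (n = 2). It fell in each of the 3 species after alpha factor, and in S. mikatae by 0.67 ± 0.0945 (adjusted p = 2.11e-06). The S. cerevisiae call was lost without replicate 1 or 3 and with only the arrays compared, and the S. paradoxus call with scaled arrays and with only the arrays compared. All S. mikatae arrays lay below all others, and the response was lower than in S. cerevisiae by −0.44 (adjusted p = 0.00711) and than in S. paradoxus by −0.41 (adjusted p = 0.0173). Sulfite reductase has 2 subunits, and the one encoded by MET5 (YJR137C) read −0.27, −0.48, −0.33 and −0.36 in S. mikatae and 0.07, 0.01 and −0.08 in S. cerevisiae. MET5 fell by 0.36 ± 0.0876 in S. mikatae (adjusted p = 0.00102), but its difference from S. cerevisiae (−0.36, adjusted p = 0.0495) was lost without any single array of the 7, under quantile normalization, without centring and with a replicate block. The other subunit gene, MET10, was at 0.03 ± 0.00659 in S. mikatae (n = 3) and −0.15 ± 0.143 in S. cerevisiae, with no call.

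MET22 (YOL064C) encodes the phosphatase that removes PAP, a by-product of PAPS reduction. It read −0.12, −0.10 and −0.04 in S. cerevisiae, 0.61, 0.57 and 0.14 in S. paradoxus and 0.05, 0.15, −0.14 and 0.09 in S. mikatae. MET22 rose by 0.44 ± 0.263 in S. paradoxus (adjusted p = 0.00242) and differed there from S. cerevisiae by 0.53 (adjusted p = 0.0204, lost without S. cerevisiae replicate 1 or 3 or S. paradoxus replicate 1 or 2). JLP1 (YLL057C), a dioxygenase that frees sulfite from sulfonates, read −0.30, −0.65 and −0.36 in S. cerevisiae, 0.17, 0.31 and 0.19 in S. paradoxus and −0.24, −0.96, −0.30 and −0.17 in S. mikatae. It was positive on the S. paradoxus arrays and negative on the other 7. JLP1 fell by 0.44 ± 0.189 in S. cerevisiae (adjusted p = 0.024, lost without replicate 2 or 3) and by 0.42 ± 0.368 in S. mikatae (adjusted p = 0.0103). The S. mikatae value was −0.23 without replicate 2, still called. Its differences from S. paradoxus, 0.66 for S. paradoxus minus S. cerevisiae (adjusted p = 0.0326) and −0.64 for S. mikatae minus S. paradoxus (adjusted p = 0.0307), were lost without any one S. paradoxus array, the first also without any one S. cerevisiae array. The siroheme synthesis genes had few calls: MET8 rose by 0.32 ± 0.142 in mating (adjusted p = 0.0119, lost without replicate 1 or 2), and MET1 was tested in S. cerevisiae alone, at −0.30 ± 0.245 (adjusted p = 0.0785).

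**Figure D4:**
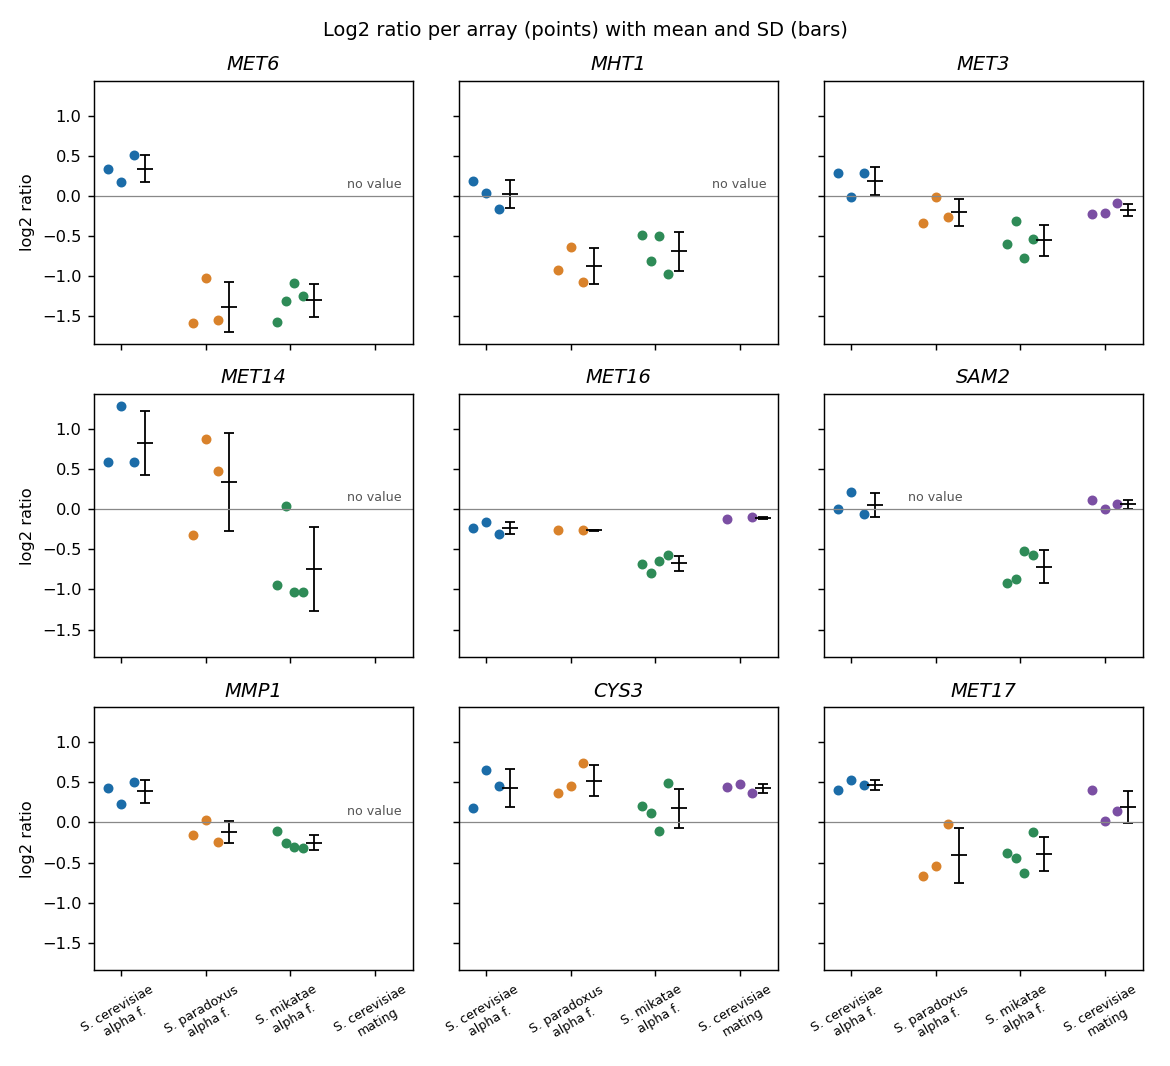
Log2 ratio on each array (points) for 9 sulfur genes in the 4 groups, with the mean and SD of each group beside the points (bars). MET6 and MHT1 were low in S. paradoxus and S. mikatae, MET3, MET16 and SAM2 lowest in S. mikatae, and CYS3 was above 0 on all arrays but one.

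S-adenosylmethionine is made by the paralogous synthetases SAM1 and SAM2, whose probes may cross-hybridise. SAM2 (YDR502C) read 0.00, 0.21 and −0.07 in S. cerevisiae after alpha factor, −0.92, −0.86, −0.52 and −0.57 in S. mikatae and 0.11, 0.00 and 0.06 in mating, with no value in S. paradoxus. The S. mikatae arrays were separate from all others. SAM2 fell there by 0.72 ± 0.205 (adjusted p = 1.83e-05) and its response was lower than in S. cerevisiae by −0.77 (interval −1.03 to −0.50; adjusted p = 0.0016). SAM1 gave values on the S. cerevisiae alpha factor arrays only, at −0.21, −0.54 and −0.79. It fell by 0.51 ± 0.293 (adjusted p = 0.0183), a call lost without replicate 2 or 3. SAH1, which breaks S-adenosylhomocysteine down, was within −0.09 to 0.14 in the group means, with no call.

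Among the transporters, MMP1 (YLL061W), the S-methylmethionine permease whose gene lies next to MHT1 on the opposite strand, moved in opposite directions in S. cerevisiae and S. mikatae. It read 0.42, 0.23 and 0.50 in S. cerevisiae, −0.16, 0.03 and −0.24 in S. paradoxus and −0.11, −0.26, −0.31 and −0.32 in S. mikatae. MMP1 rose by 0.39 ± 0.142 in S. cerevisiae (adjusted p = 0.00361) and fell by 0.25 ± 0.097 in S. mikatae (adjusted p = 0.0102). The difference from S. cerevisiae was −0.64 in S. mikatae (adjusted p = 0.0023) and −0.51 in S. paradoxus (adjusted p = 0.0103, lost without S. cerevisiae replicate 3). The S-adenosylmethionine permease SAM3 (YPL274W), the neighbour of SAM4, read 0.23, 0.19 and 0.25 in S. cerevisiae and −0.24, −0.33, −0.34 and −0.29 in S. mikatae. SAM3 rose by 0.22 ± 0.0278 in S. cerevisiae (adjusted p = 0.0239, lost without any one array) and fell by 0.30 ± 0.0458 in S. mikatae (adjusted p = 0.00153). These arrays did not overlap, and the difference was −0.52 (interval −0.72 to −0.33; adjusted p = 0.00387). Cross-hybridisation between the probes of MMP1 and SAM3, or between those of MHT1 and SAM4, was not tested.

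SUL2 (YLR092W), one of the sulfate permeases, read −0.46, −0.37 and −0.38 in S. cerevisiae, −0.19, −0.22 and −0.79 in S. paradoxus and −0.27, −1.09, −0.44 and −0.50 in S. mikatae. All 10 values were below 0, and 1 array in each of S. paradoxus and S. mikatae was far lower than its fellows. SUL2 fell by 0.58 ± 0.357 in S. mikatae (adjusted p = 0.00264) and by 0.40 ± 0.34 in S. paradoxus (adjusted p = 0.0404, lost without replicate 2 or 3 and with only the arrays compared), and was at −0.40 ± 0.0469 in S. cerevisiae (adjusted p = 0.0515). Without S. paradoxus replicate 3 the mean there was −0.20. The other sulfate permease gene, SUL1, lay between −0.10 and 0.13 with no call. MUP1 (YGR055W), the high-affinity methionine permease, read 0.06, 0.26 and 0.42 after alpha factor in S. cerevisiae and −0.28, −0.38 and −0.30 in mating, with −0.41, −0.07 and 0.03 in S. paradoxus. It fell by 0.32 ± 0.0522 in mating (adjusted p = 0.0215, lost without any one of its arrays).

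In the mating experiment 2 of 18 sulfur genes differed from the S. cerevisiae alpha factor response, MUP1 and MET4, both lower in mating, where 16.0% of all genes tested differed (7.37% lower and 8.63% higher). MUP1 differed by −0.57 (interval −0.86 to −0.27; adjusted p = 0.0184), which was lost without S. cerevisiae alpha factor replicate 3 or mating replicate 2. MET4 (YNL103W), the activator of the pathway, read 0.34, 0.23 and 0.24 after alpha factor, −0.05, −0.10 and −0.10 in mating and 0.27, −0.03 and −0.03 in S. paradoxus. It rose by 0.27 ± 0.0582 after alpha factor in S. cerevisiae (adjusted p = 0.0193) and differed in mating by −0.35 (adjusted p = 0.0474). Both MET4 calls were lost without any one of the arrays concerned, and the difference was also lost with a replicate block (adjusted p = 0.058). The count of 2 became 1 without alpha factor replicate 1 or mating replicate 1 or 3. It became 0 in limma without alpha factor replicate 3 or mating replicate 2, where 3 and 4 genes had an unadjusted p under 0.05. Over all genes 584 calls became 367, 411 and 392 in the fits giving 1, and 294 and 366 in those giving 0. The 2 experiments also differ in time, in the growth surface and in the presence of alpha cells, which cannot be told apart here.

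In transsulfuration, CYS3 (YAL012W), which makes cysteine from cystathionine, rose in 3 of the 4 groups. It read 0.18, 0.65 and 0.46 in S. cerevisiae, 0.37, 0.46 and 0.74 in S. paradoxus, 0.20, 0.12, −0.11 and 0.49 in S. mikatae and 0.44, 0.47 and 0.37 in mating. CYS3 rose by 0.52 ± 0.194 in S. paradoxus (adjusted p = 0.00155), by 0.43 ± 0.237 in S. cerevisiae (adjusted p = 0.009, lost without replicate 2 or 3) and by 0.43 ± 0.0558 in mating (adjusted p = 0.00736). In S. mikatae it was at 0.17 ± 0.246 (adjusted p = 0.145), and no difference between groups was called, the widest being −0.35 for S. mikatae minus S. paradoxus (interval −0.66 to −0.04; adjusted p = 0.133). STR2 (YJR130C), which makes cystathionine from cysteine, in the opposite sense, read −0.20, −0.05 and 0.03 in S. cerevisiae, 0.06, 0.04 and −0.03 in S. paradoxus, 0.19, 0.46 and 0.47 in S. mikatae and −0.09, −0.27 and −0.25 in mating. The 3 S. mikatae arrays with a value lay above all others. STR2 rose by 0.37 ± 0.16 in S. mikatae (n = 3; adjusted p = 0.0013) and differed there from S. cerevisiae by 0.45 (adjusted p = 0.0166, lost without S. cerevisiae replicate 1 or S. mikatae replicate 3 or 4 and with only the arrays compared). Its difference from S. paradoxus was 0.35 (adjusted p = 0.0454), which was kept in 4 of 15 alternatives. It was lost without S. mikatae replicate 1, 3 or 4 or any one S. paradoxus array, and with the replicate block, scaled arrays, quantile normalization or only the arrays compared. In mating STR2 fell by 0.20 ± 0.102 (adjusted p = 0.0487, lost without replicate 2 or 3, without centring and with only the arrays compared). CYS4, the cystathionine beta-synthase, fell by 0.23 ± 0.102 in S. mikatae (adjusted p = 0.011, lost without replicate 3).

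Of 6 regulators 3 were tested in S. mikatae, where MET28 and MET30 were called higher and CBF1 was not called. Only 18 of the 34 genes were tested in mating, and fewer in all 4 groups. How many of all genes were called in all 4 groups was not computed. Among the sulfur genes tested in all 4, only MET30 (YIL046W), the F-box gene that restrains Met4, was called in each. Its 13 values ran from 0.04 to 0.38, all above 0, and it rose by 0.24 ± 0.173 in S. cerevisiae (adjusted p = 0.0292), 0.31 ± 0.0211 in S. paradoxus (adjusted p = 0.00412), 0.22 ± 0.13 in S. mikatae (adjusted p = 0.0149) and 0.24 ± 0.0772 in mating (adjusted p = 0.0222). The S. paradoxus call held when any one array was left out, and the others were lost without S. cerevisiae replicate 2 or 3, S. mikatae replicate 1 or 4, or mating replicate 2 or 3, the S. cerevisiae one also with only the arrays compared. The Met4 partner MET28 rose by 0.38 ± 0.206 in S. cerevisiae (adjusted p = 0.0359) and by 0.33 ± 0.321 in S. mikatae (n = 3; adjusted p = 0.0489), the first lost without any one array and the second without replicate 1, 2 or 3 and with scaled, quantile normalized or only the compared arrays. MET32 rose by 0.39 ± 0.0888 in S. paradoxus (adjusted p = 0.00192). CBF1 and MET31 had no call, and MET4, MET31 and MET32 were not measured in S. mikatae, so the activator itself was not seen there. For the members not given array by array (MUP3, AGP3 and STR3 among them), mean ratios of groups with at least 2 values lay between −0.48 and 0.39.

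Of 34 related genes around the pathway, chosen from general knowledge, 14 of 33 tested were called in S. cerevisiae (8 higher and 6 lower), 13 of 28 in S. paradoxus (6 and 7), 10 of 26 in S. mikatae (4 and 6) and 10 of 19 in mating (4 and 6). Those shares can be read against 33.6%, 48.5%, 48.0% and 39.6% of all genes called in either direction. Differences between species were called for 2 of 28 (S. paradoxus minus S. cerevisiae), 2 of 26 (S. mikatae minus S. cerevisiae) and 4 of 23 (S. mikatae minus S. paradoxus), and for 3 of 19 between mating and alpha factor, where 16.3%, 11.9%, 13.7% and 16.0% of all genes were called. The S. mikatae median of these genes was 0.04, against −0.23 for the 25 sulfur genes. In S. mikatae the thioredoxin gene TRX1, whose product gives electrons to the PAPS reductase, fell by 0.69 ± 0.198. TRX2, the other thioredoxin gene listed, was at 0.16 in that species. The thioredoxin reductase gene TRR1 rose there by 0.66 ± 0.194 and MEU1 of methionine salvage fell by 0.51 ± 0.29. In S. paradoxus the cysteine transporter YCT1 rose by 0.77 ± 0.157, TRR1 rose by 0.53 ± 0.136 and the salvage gene ADI1 fell by 0.63 ± 0.374. YHR112C rose by 0.79 ± 0.456 in S. cerevisiae, with 0.49, 1.31 and 0.56 on its arrays. In mating ADO1, the adenosine kinase, rose by 0.57 ± 0.0954 while SEO1 fell by 0.69 ± 0.226. Calls of these related genes were not examined under the alternatives run for the members, such as leaving out an array.

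IRC7 (YFR055W), a beta-lyase that acts on cysteine compounds, differed most among these related genes. It fell by 1.56 ± 0.185 in S. paradoxus (n = 3; 2.94-fold; adjusted p = 2.51e-08) and by 0.39 ± 0.143 in S. cerevisiae (adjusted p = 0.00557), and it rose by 0.49 ± 0.139 in S. mikatae (n = 4; adjusted p = 0.000192) and by 0.65 ± 0.176 in mating (n = 3; adjusted p = 0.000113). S. mikatae minus S. paradoxus was 2.05 (interval 1.79 to 2.31), and mating differed from the S. cerevisiae alpha factor response by 1.05 (interval 0.77 to 1.33; adjusted p = 0.0002).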

How the data were processed

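Each array was a 2-colour S. cerevisiae cDNA array with a treated or mated sample and its reference, labelled by the indirect amino-allyl method per the labels' protocols. The deposited table holds 1 value per ORF and array, read as the authors' log2 ratio of channel 1 over channel 2. Neither the log base nor the scanner, background correction, normalization or handling of missing values is given in the sources used here. Each array was centred on its median, which lay between −0.00931 and 0.00805 as deposited. Means per group were fitted over all 13 arrays in limma 3.58.1 (R 4.3.3) and group means or differences tested with eBayes; at least 2 arrays per group were required. All 35 members matched the RefSeq R64 gene table by locus tag. No sequence table was used here.

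The members, lists and tests were chosen with earlier results of these data known. Array values are printed for members called in a difference between groups, or called in a response with a mean of at least 0.5 in size; of the related genes, those called with a mean of at least 0.5, at most 6 per response. MET2, MET28, MET30, MET32, MET8, CYS4, uncalled neighbours in the pathway, TRX2 and the differences of IRC7 were added after their values were seen. On simulated data for S. mikatae minus S. cerevisiae (4357 genes), 60 of 100 genes changed by 0.5 log2 and 98 of 100 changed by 1 were recovered. Alternatives were no centring, scaled arrays, quantile normalization, array weights, robust eBayes, complete genes, the compared arrays alone, a minimum of 0.5 log2, a replicate block, and each array left out in turn. Counting MET17 was added later.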

Additional observations from a re-analysis of the deposited data

Results flagged for a closer look

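A sample far from the other 3 was found in S. mikatae for 4 of the 23 members with 4 values. The cutoff nominally flags about 1 in 20 genes with independent, normally distributed values. How many of all genes it flags was not computed, so the 4 of 23 cannot be read as an excess. The flagged members were MET14, at 0.036 on replicate 2, JLP1, at −0.96 on replicate 2, MET13, at −0.19 on replicate 2, and SAM4, at −0.79 on replicate 4. Replicate 2 had the largest median absolute deviation of the 4 S. mikatae arrays over all genes (0.41, against 0.271 to 0.371), and its part in these values was not tested.

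Responses that differed between species by limma's test of the difference were the following. S. paradoxus minus S. cerevisiae was −1.72 for MET6, −0.90 for MHT1, −0.88 for MET17, −0.51 for MMP1, 0.53 for MET22 and 0.66 for JLP1. S. mikatae minus S. cerevisiae was −1.64 for MET6, −1.56 for MET14, −0.86 for MET17, −0.77 for SAM2, −0.74 for MET3, −0.72 for MHT1, −0.64 for MMP1, −0.52 for SAM3, −0.44 for MET16, −0.39 for SAM4, −0.36 for MET5 and 0.45 for STR2. S. mikatae minus S. paradoxus was −1.08 for MET14, −0.64 for JLP1, −0.41 for MET16 and 0.35 for STR2. The values for MET17 set 2 species against a strain without the gene.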

How the results depend on the processing

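Of 70 called values of the members (MET17 included), 54 kept their call under every alternative run for them other than leaving out an array and the minimum size, 36 of these also with each array left out, and none changed sign. A further 18 values without a call gained one under at least 1 alternative. When 1 array was left out, the number of sulfur genes called ranged from 2 to 7 in S. cerevisiae, 7 to 9 in S. paradoxus, 14 to 15 in S. mikatae and 2 to 4 in mating. It ranged from 2 to 5 for S. paradoxus minus S. cerevisiae, 8 to 9 for S. mikatae minus S. cerevisiae, 1 to 5 for S. mikatae minus S. paradoxus, 0 to 2 for mating minus alpha factor and 6 to 9 for any difference among species. Calls over all genes ran from 1124 to 1402, 1666 to 1869, 1762 to 1861 and 968 to 1099 in those groups. For those differences they ran from 446 to 703, 309 to 492, 379 to 528, 294 to 498 and 702 to 968. With all arrays they were 1946, 2303, 2095, 1469, 770, 517, 561, 584 and 978. Some fits also tested fewer members, as few as 23 of 27 in S. paradoxus and 18 of 21 for S. mikatae minus S. paradoxus. Only 9 members were measured on all 13 arrays, and restricted to such genes the counts, in the same order, were 2, 2, 4, 3, 1, 2, 0, 0 and 2. Of all 2194 such genes, 823, 1193, 1245, 936, 421, 341, 424, 511 and 679 were called. The share of members called was below that of all such genes for the S. mikatae response. For S. mikatae minus S. cerevisiae it was above. The 2 counts of 0 had 2 and 1 members at an unadjusted p under 0.05 in limma. With a minimum size of 0.5 log2 the counts were 2 of 32 in S. cerevisiae, 3 of 27 in S. paradoxus, 8 of 25 in S. mikatae and 0 of 18 in mating by construction. Over all genes that minimum left 705 of 5789, 936 of 4748, 725 of 4367 and 504 of 3712 in the same groups. For S. mikatae minus S. cerevisiae that minimum left 7, for S. mikatae minus S. paradoxus 2 and for mating minus alpha factor 1. Over all genes it left 299 of 4357, 314 of 4090 and 354 of 3648. S. mikatae minus S. paradoxus had 2 calls in place of 4 with scaled arrays, with only the arrays compared and with the replicate block, and the cause was not tested. Over all genes it had 440, 435 and 518 calls in place of 561. The replicate block also left 1 of 2 calls for mating minus alpha factor. Apart from this and S. mikatae minus S. paradoxus, it kept the counts within 1 gene. Over all genes mating minus alpha factor then had 532 calls in place of 584. Arrays with the same replicate number deviated together no more than others (18 pairs, r from −0.261 to 0.334, against −0.336 to 0.378 for 45 other pairs), and 3 of 13 arrays correlated best with one of their own number, so no pairing was used. Missing values, and the unknown signal over background, limit what can be said of the 15 genes not seen in mating.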
